A study of Mus musculus with 8 samples.

Results

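Heat shock proteins and chaperones were followed in 2 cell populations sorted from the bone marrow of adult C57Bl6 mice. The members were every gene whose symbol belongs to the Hspa, Hspb, Hspd, Hspe, Hsph or Hsp90 series, to the J proteins Dnaja, Dnajb and Dnajc, to the chaperonin TRiC (Tcp1 and the numbered Cct genes), to Bag1 to Bag6, or to Hsf1, Hsf2 and Hsf4. Hspa5, Hsp90b1, Dnajb9, Dnajb11, Dnajc3 and Hspbap1, most of which act in the endoplasmic reticulum, were left out by the rule. This gave 86 genes of the 24011 measured. Hsf1, the main heat shock factor, and Hsp90ab1, the constitutive cytosolic HSP90, have no row in the values table used here and were not analysed. The symbols also bring in genes outside the cytosol, among them the mitochondrial Hspd1, Hspe1 and Hspa9 and the Hspa13 and Dnajc1 proteins of the endoplasmic reticulum, and Hspb11, whose product is a subunit of intraflagellar transport.

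The Lin+ group, cells bearing antigens of the mature lineages, has 4 arrays. The group called HSC-enriched, for haematopoietic stem cells (HSCs), also has 4. Its labels name an LSK gate (no lineage antigens, but Sca-1 and Kit) with CD105 present and CD48 absent, while the design text of the series has CD150 in the place of CD105. No treatment or transgene is named for either group, and the labels give neither the age in weeks nor whether samples came from separate animals or pools, so the p-values reflect the spread among these arrays alone, and that spread may be technical. In such bulk samples fewer cells of a type and less RNA per cell cannot be told apart.

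Chaperones hold unfolded proteins and help them reach or regain their shape. HSP70 proteins bind and release short exposed stretches in a cycle driven by ATP. J proteins deliver the client and start ATP hydrolysis, and exchange factors reset the cycle by removing ADP. HSP90 acts later on kinases and receptors, TRiC is a closed double ring that folds actin and tubulin, and HSP60 with HSP10 forms the corresponding chamber in mitochondria. Heat shock factors bind repeats of GAA in the promoters of many of these genes, and haematopoietic stem cells are known for low protein synthesis and for sensitivity to misfolded protein.

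Values are log2 levels, and a difference is the HSC-enriched mean minus the Lin+ mean, with limma's standard error (SE). A gene passed when its p from limma, adjusted by Benjamini-Hochberg over all 24011 genes, was under 0.05. Array medians ran from 5.22 to 5.33 and correlations across genes from 0.978 to 0.986 within the groups. As a check on the labels, all 10 measured HSC markers were higher in HSC-enriched cells, some of which (Kit, Eng, Slamf1) encode antigens named for the sort, and 16 of 17 neutrophil, 9 of 9 erythroid, 8 of 8 B cell, 8 of 8 monocyte and 7 of 7 T and NK cell markers were lower. Of 5 megakaryocyte markers 3 were higher. Neutrophil markers were unequal among HSC-enriched arrays, with mean levels of 6.51 and 6.36 on replicates 1 and 2 and of 8.73 and 8.47 on replicates 3 and 4, against 11.17 to 11.51 on Lin+ arrays. B cell markers averaged 6.33 on HSC-enriched replicate 3 against 4.82 to 5.01 on the other HSC-enriched arrays. As a guide to background, the 95th percentile of the levels of 1091 olfactory receptor genes was taken, which was 5.11.

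Of the 86 chaperone genes, 28 were higher in HSC-enriched cells, 5 were lower and 53 did not pass. The called share was 38.4%, against 27.8% over all genes. The share called higher was 32.6%, against 15.5% over all genes, and the share called lower 5.81%, against 12.4%. Both group means lay at or under the background guide for 14 of the 86, against 10439 of all genes, so a second background was taken over brighter genes. Among genes whose mean over all 8 arrays exceeded the overall median level, a split by level that was chosen after seeing the data, 30 of 69 chaperone genes were called (43.5%), against 45.6% of 12211 genes. Of these chaperone genes 37.7% were called higher, against 25.7%, and 5.8% lower, against 19.9%. These shares are descriptions, and the difference in direction from other genes was not tested.

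**Figure D1:**
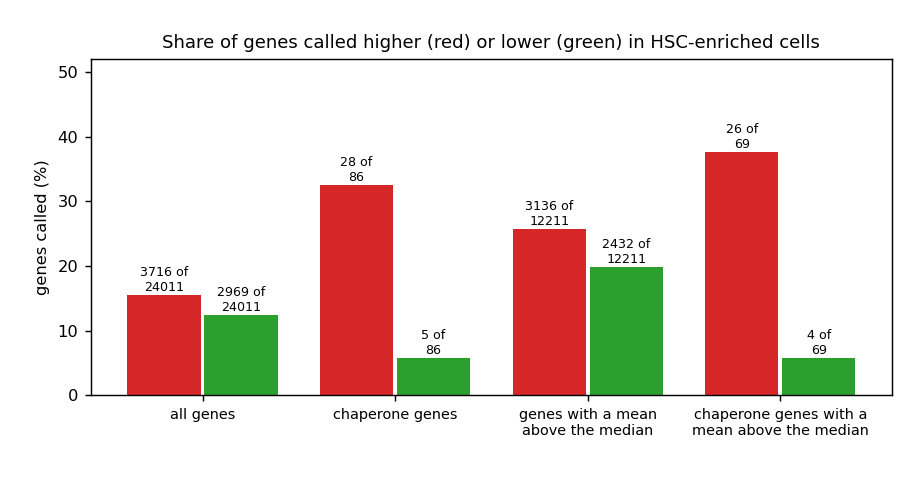
Percent of genes called higher (red) or lower (green) in HSC-enriched cells by limma (adjusted p under 0.05), over all genes, over the chaperone genes, and over each set limited to genes whose mean over all arrays exceeded the overall median level; the count is printed on each bar. Among the 86 chaperone genes 28 were called higher and 5 lower, against 3716 and 2969 of 24011 over all genes.

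The differences were modest in size. The median over the 86 genes was 0.16, against 0.02 over all genes, and 60 of the 86 lay above 0, against 12861 of all 24011. Those called higher by at least 2-fold were Hspb11, Dnajc6, Dnajb4, Dnajc27, Bag3 and Hspa9, which is 6 genes or 6.98%, against 4.8% over all genes. No chaperone gene was called lower by 2-fold, a class that holds 6.08% of all genes. Without regard to fold, 7 members lay lower and 36 higher at an unadjusted p under 0.05 in limma. Of the 24011 genes, 3768 lay lower and 4839 higher at that threshold. Every HSC-enriched array lay beyond every Lin+ array for 32 members in the higher direction (37.2%, against 15.9% of all genes) and 5 in the lower (5.81%, against 13%), in all 43% of members against 28.9% of all genes. Without HSC-enriched replicates 3 and 4, the arrays with more neutrophil transcript, 25 members were called higher and 3 lower, and the median was 0.26. In that fit 28 members and 5544 of all genes were called in either direction, against 33 and 6685 with all arrays. The calls over all genes were not split by direction there.

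**Figure D2:**
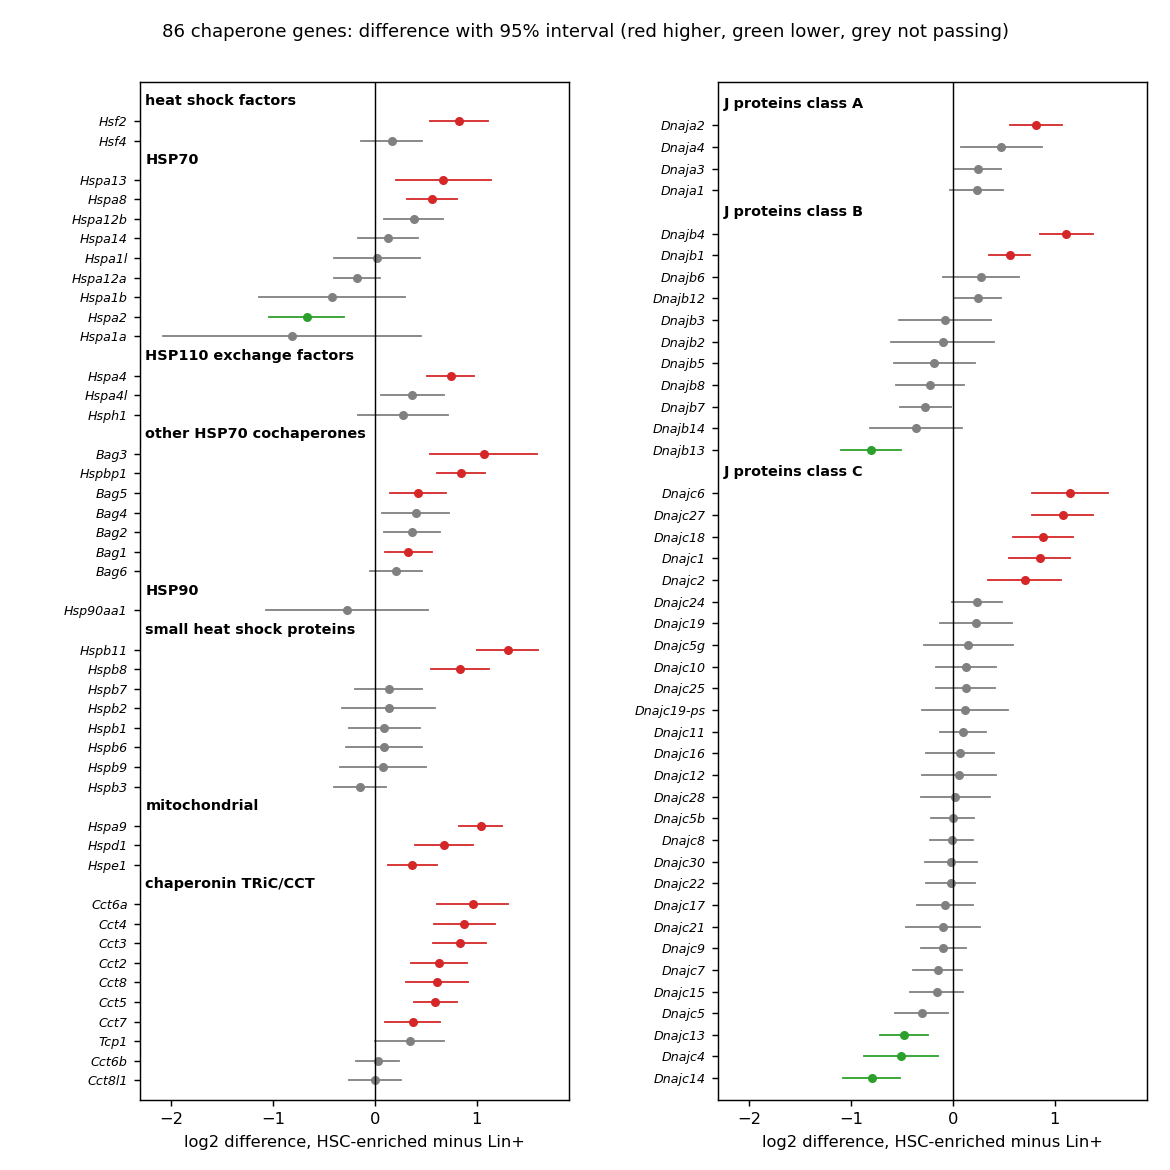
Log2 difference (HSC-enriched minus Lin+, x axis) of each of the 86 chaperone genes with limma's 95% interval, ordered by role; red passed as higher, green as lower and grey did not pass (4 arrays per group). All 3 members grouped as mitochondrial (Hspa9, Hspd1 and Hspe1) and 7 of the 10 chaperonin genes lie to the right. Most class C J proteins lie around 0, and the widest interval is that of Hspa1a.

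Among heat shock factors, Hsf2, which acts in development and spermatogenesis and can pair with Hsf1, rose. Its levels were 6.21, 6.72, 6.35 and 6.47 on Lin+ arrays and 7.11, 7.38, 7.34 and 7.21 on HSC-enriched arrays. The groups did not overlap, and the difference was 0.83 ± 0.13 (SE, n = 4 per group), or 1.77-fold (adjusted p = 0.00068). Hsf4, best known from the lens, was at 5.45 ± 0.24 and 5.61 ± 0.12 (SD, n = 4) and did not pass (difference 0.16, adjusted p = 0.45).

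TRiC genes rose largely together. The ring is built from 8 different subunits, and 7 of their genes rose, by 1.30-fold (Cct7) to 1.94-fold (Cct6a), with 8 of 8 differences above 0 and a median of 0.62. None of the 8 fell, either after adjustment or at an unadjusted p under 0.05 in limma, and all 8 were higher at that unadjusted threshold. By comparison, 15.5% of all genes were called higher, 4839 of 24011 were higher at the unadjusted threshold and 12861 lay above 0. Among genes with a mean above the overall median level, 25.7% were called higher. Cct6a was at 8.29, 8.61, 8.07 and 8.58 on Lin+ arrays and at 9.46, 9.59, 9.25 and 9.09 on HSC-enriched arrays, a difference of 0.96 ± 0.16 (adjusted p = 0.00095). Cct4 was at 9.19, 9.01, 8.67 and 8.68 against 9.81, 9.80, 9.64 and 9.81, a difference of 0.88 ± 0.13 (adjusted p = 0.00060). For both genes every HSC-enriched array lay above every Lin+ array. Cct3 had the tightest Lin+ values of the ring, 7.530, 7.488, 7.548 and 7.503, against 8.58, 8.42, 8.31 and 8.09, a difference of 0.83 ± 0.12 (adjusted p = 0.00035).

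Cct2, Cct8 and Cct5 formed a middle set with differences of 0.63, 0.61 and 0.59. Cct5 was at 10.14, 10.17, 10.03 and 10.15 in Lin+ cells and at 10.78, 10.79, 10.64 and 10.64 in HSC-enriched cells, again without overlap (SE 0.09, adjusted p = 0.00078). Adjusted p-values were 0.0031 for Cct2 and 0.0066 for Cct8. Cct7 rose by 0.37 ± 0.12 (adjusted p = 0.043) from 9.04, 9.31, 9.31 and 9.38 to 9.68, 9.75, 9.71 and 9.39. Its lowest HSC-enriched array thus lay just above its highest Lin+ array. The Cct7 call did not hold without Lin+ replicate 1 (0.30, adjusted p = 0.10), 2 (0.39, adjusted p = 0.071), 3 (0.39, adjusted p = 0.071) or replicate 4 (0.41, adjusted p = 0.0504), or with HSC-enriched replicate 1 removed (0.36, adjusted p = 0.093), 2 (0.33, adjusted p = 0.11) or replicate 3 (0.35, adjusted p = 0.11).

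Tcp1, which encodes the founding subunit of the ring, was at 9.05, 9.21, 8.76 and 9.25 against 9.51, 9.63, 9.42 and 9.08 and did not pass (0.34 ± 0.15, adjusted p = 0.13). HSC-enriched replicate 4 was the only HSC-enriched array to fall within the Lin+ range, and without it the difference was 0.45 (adjusted p = 0.041). Differences between subunits were not tested. The other chaperonin members, Cct6b, a testis form of Cct6a, and Cct8l1, a Cct8-like gene, were near background in both groups, with means of 3.99 and 4.02 for Cct6b and of 3.37 and 3.38 for Cct8l1.

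**Figure D3:**
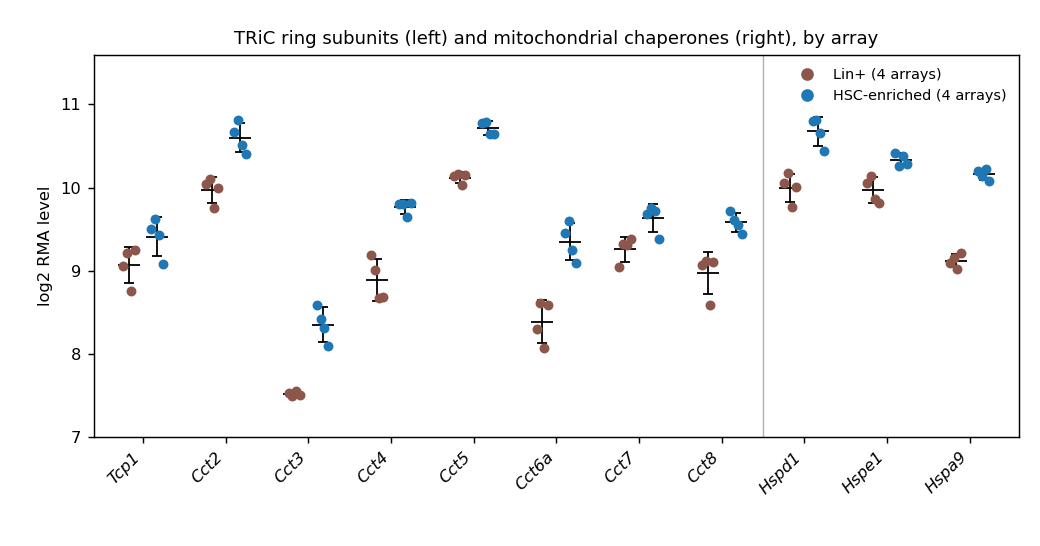
Log2 RMA level on each array (dots, brown Lin+ and blue HSC-enriched) of the 8 TRiC ring genes and of Hspd1, Hspe1 and Hspa9. The mean and SD of 4 arrays are in black. HSC-enriched dots lie above all Lin+ dots for every gene except Tcp1, where HSC-enriched replicate 4 at 9.08 falls among the Lin+ arrays.

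The members grouped as mitochondrial, Hspa9, Hspd1 and Hspe1, rose as well, all 3 without overlap between groups. This group is not the whole mitochondrial chaperone system. The mitochondrial Dnaja3, counted in class A, did not pass (0.25, adjusted p = 0.10). Of all genes, 15.5% were called higher and 15.9% lay higher without overlap. Hspa9, the HSP70 of the mitochondrial matrix (mortalin), was at 9.09, 9.15, 9.02 and 9.22 in Lin+ cells and at 10.20, 10.14, 10.22 and 10.08 in HSC-enriched cells. This 2.05-fold difference, 1.04 ± 0.09, had the lowest adjusted p among the 86 genes (1.7e-05). Hspd1, which encodes HSP60, was at 10.051, 10.173, 9.769 and 10.004 against 10.80, 10.81, 10.65 and 10.44 (0.68 ± 0.13, adjusted p = 0.0023). Hspe1, which encodes its lid HSP10, was at 10.06, 10.14, 9.86 and 9.82 against 10.42, 10.26, 10.38 and 10.28 (0.37 ± 0.11, adjusted p = 0.027). The Hspe1 call was lost without Lin+ replicate 3 (0.33, adjusted p = 0.072) or replicate 4 (0.32, adjusted p = 0.074) and on removing HSC-enriched replicate 1 (0.34, adjusted p = 0.068) or replicate 3 (0.35, adjusted p = 0.068). With both of HSC-enriched replicates 3 and 4 removed it was lost too (0.37, adjusted p = 0.11), whereas Hspd1 and Hspa9 passed in each of these fits.

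Hspd1 and Hspe1 lie head to head and are read in opposite directions from a shared promoter. The RefSeq windows on GRCm38.p6 place 215 bases between their nearer start sites (chr1:55087933-55088147, printed on the Hspe1 strand), and another Hspd1 start lies beyond that of Hspe1. The stretch is shown because it lies upstream of both genes and holds repeated heat shock element letters. Capitals mark matches to GAANNTTC or TTCNNGAA, that is, inverted GAA repeats of 8 bases. Each reads the same on both strands, and matches may overlap.
Hspe1 and Hspd1: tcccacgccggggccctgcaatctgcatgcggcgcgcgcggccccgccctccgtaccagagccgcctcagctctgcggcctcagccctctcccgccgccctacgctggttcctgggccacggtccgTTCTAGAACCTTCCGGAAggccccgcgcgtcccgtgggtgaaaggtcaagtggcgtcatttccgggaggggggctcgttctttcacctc
This run holds 3 overlapping matches and 2 matches to the triple repeat GAANNTTCNNGAA or its reverse complement TTCNNGAANNTTC.

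The same letters were searched in the windows, 250 bases before to 50 after each start, of the 69 members that have one. At least 1 inverted repeat was found for 21 members (30.4%), against 15.8% of 18072 measured genes with a window and 17% of all 27025 genes with one. The triple repeat was found for 4 members, Hspd1, Hspe1, Hsph1 and Dnajb6 (5.8%), against 0.625% of measured genes. Hspd1 and Hspe1 are counted separately in these shares, although their matches are the same letters of the shared stretch. Hspa1a and Hspa1b, whose upstream bases are nearly the same, are also counted separately among the 21. By call, 9 of 22 members called higher held an inverted repeat, as did 12 of 42 that did not pass and 0 of 5 called lower, so the letters were also present in members that did not pass. A match is a description of letters and not evidence of a bound site. The following stretches show members with a match upstream of a start, 2 from the ring, a J protein that rose, and 2 genes that did not pass.
Cct2 (chr10:117063395-117063432, minus strand): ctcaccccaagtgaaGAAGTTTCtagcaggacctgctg
Cct5 (chr15:31601858-31601895, minus strand): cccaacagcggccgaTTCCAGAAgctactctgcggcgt
Dnajb4 (chr3:152193846-152193874, minus strand): ttcgttcgttcgctgTTCTAGAAagtaca
Dnajb6 (chr5:29735837-29735879, plus strand): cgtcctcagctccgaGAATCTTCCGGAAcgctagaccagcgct
Hspb1 (chr5:135887787-135887844, plus strand): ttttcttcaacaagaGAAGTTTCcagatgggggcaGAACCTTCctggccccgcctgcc

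In the HSP70 family calls went both ways. Of 9 measured genes 2 rose, 1 fell and 6 did not pass, numbers this small and near the shares of all genes (15.5% higher, 12.4% lower) that they say nothing about the family as a group. Hspa8, the constitutive cytosolic HSP70 (HSC70), was at 11.50, 11.40, 11.24 and 11.15 in Lin+ cells and at 11.79, 11.95, 11.84 and 11.95 in HSC-enriched cells. The groups did not overlap, and the difference was 0.56 ± 0.11, or 1.47-fold (adjusted p = 0.0028). Hspa13, a microsomal HSP70, was at 6.05, 6.83, 5.98 and 6.16 against 7.05, 7.30, 6.73 and 6.63 (0.67 ± 0.21, adjusted p = 0.036), with Lin+ replicate 2 above the lowest HSC-enriched arrays. Its call was lost without Lin+ replicate 1 (0.60, adjusted p = 0.089), 3 (0.58, adjusted p = 0.10) or replicate 4 (0.64, adjusted p = 0.085) and on removing HSC-enriched replicate 1 (0.63, adjusted p = 0.087) or replicate 2 (0.54, adjusted p = 0.10).

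Hspa2, an HSP70 known for its part in spermatogenesis, went the other way. It was at 7.26, 6.91, 7.05 and 6.95 in Lin+ cells and at 6.60, 6.70, 6.16 and 6.03 in HSC-enriched cells, a fall by 0.67 ± 0.16 (adjusted p = 0.011) without overlap. HSC-enriched replicates 3 and 4 were the lowest arrays, and without both the difference was -0.39 (adjusted p = 0.090). Hspa14, an HSP70 that binds ribosomes, was at 7.90 ± 0.23 and 8.02 ± 0.12 (SD, n = 4) and did not pass (difference 0.13, 95% interval -0.17 to 0.42). Its partner Dnajc2 rose by 0.70 ± 0.16, from 8.63 ± 0.35 to 9.33 ± 0.08 (adjusted p = 0.0079). Hspa12b, an endothelial HSP70 relative, just missed the threshold at 0.38 (adjusted p = 0.052) and passed without Lin+ replicate 1 (0.45, adjusted p = 0.030), while Hspa1l and Hspa12a were near background in both groups.

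The stress-inducible Hspa1a and Hspa1b, which encode nearly the same HSP70 protein, did not pass, and Hspa1a had the largest SE of the 86 genes. Hspa1a was at 8.26, 8.98 and 8.56 on Lin+ replicates 1 to 3 but at 5.98 on Lin+ replicate 4, and at 7.84, 7.01, 7.20 and 6.47 on HSC-enriched arrays. With all arrays the difference was -0.81 ± 0.57 and did not pass (adjusted p = 0.37, 95% interval -2.08 to 0.45). Without Lin+ replicate 4 the 3 other Lin+ arrays all lay above the HSC-enriched arrays, and the difference was -1.47 ± 0.30 (adjusted p = 0.0055). So 1 array decided whether Hspa1a was called. Hspa1b was at 6.31, 7.37, 6.45 and 5.82 against 6.33, 5.64, 6.59 and 5.69 and overlapped between groups (-0.42 ± 0.32, adjusted p = 0.41). Without Lin+ replicate 4 it did not pass either (-0.65, adjusted p = 0.18).

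Lin+ replicate 4 was also the lowest Lin+ array for the immediate-early and stress genes, a list of 30 genes of the kind that many stimuli, cell handling among them, switch on quickly. Their mean level was 8.998, 9.297 and 9.351 on Lin+ replicates 1 to 3, 8.47 on replicate 4, and 9.53 to 9.77 on HSC-enriched arrays. The part of this difference between Lin+ arrays in the Hspa1a result was not tested. Over this list 12 of 30 genes were higher in HSC-enriched cells and 3 lower, led by the nuclear receptor genes Nr4a2 (3.27) and Nr4a1 (3.00) in one direction and the antiproliferative genes Btg1 (-1.48) and Btg2 (-0.64) in the other. For comparison, 15.5% of all genes were called higher and 12.4% lower. Among genes with a mean above the overall median level these shares were 25.7% and 19.9%. The mean of the immediate-early list was higher on every HSC-enriched array than on any Lin+ array. The Hspa1a group mean was lower in HSC-enriched cells, but that difference did not pass in limma (adjusted p = 0.37). Whether the list and Hspa1a are related was not tested.

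The upstream sequences of Hspa1a and Hspa1b are printed to show how alike the genes are before their starts. They are on chromosome 17, both on the minus strand, and 149 of the 150 bases before their starts are the same, with 1 inverted repeat in each. These bases lie before the starts, so they do not bear on which transcript a probe reads. The transcripts are also known as close copies, which was not examined here, so the levels of the individual genes are uncertain.
Hspa1a (chr17:34972157-34972306): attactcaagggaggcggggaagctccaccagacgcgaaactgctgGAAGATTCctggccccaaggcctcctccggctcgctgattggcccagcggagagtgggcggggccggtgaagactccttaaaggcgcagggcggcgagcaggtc
Hspa1b (chr17:34959239-34959388): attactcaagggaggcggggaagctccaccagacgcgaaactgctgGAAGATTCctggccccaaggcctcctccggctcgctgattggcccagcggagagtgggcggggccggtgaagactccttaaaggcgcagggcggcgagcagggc

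Exchange factors of the HSP110 group and other HSP70 cochaperones follow, and neither set was tested as a group. Of the 3 HSP110 genes 1 was called higher, against 15.5% of all genes, a number too small to describe the group. In the HSP110 group, Hspa4 was at 9.05, 9.19, 9.13 and 9.12 in Lin+ cells and at 9.75, 10.06, 9.81 and 9.83 in HSC-enriched cells. It rose by 0.74 ± 0.10, or 1.67-fold (adjusted p = 0.00030). Its relatives did not pass. Hspa4l was at 7.27, 7.70, 7.80 and 7.72 against 8.11, 8.13, 7.84 and 7.88 (0.37 ± 0.14, adjusted p = 0.077), so its groups did not overlap although the test missed the threshold. The heat-inducible Hsph1 was at 7.49, 7.09, 6.80 and 6.79 against 7.79, 7.24, 7.04 and 7.19, with clear overlap (0.27 ± 0.20, adjusted p = 0.39).

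Of 7 other cochaperones 4 rose, and the differences of all 7 lay above 0. In limma none was lower, after adjustment or at an unadjusted p under 0.05, where 6 were higher. Of all genes 15.5% were called higher, and of those with a mean above the overall median level 25.7%. At the unadjusted threshold 4839 of 24011 genes were higher and 3768 lower. Hspbp1, an exchange factor of cytosolic HSP70, was at 7.23, 7.09, 7.06 and 7.01 against 7.89, 8.12, 7.80 and 7.97 (0.85 ± 0.11, adjusted p = 0.00017). Bag3, which links HSP70 to selective autophagy, was at 5.91, 6.92, 6.94 and 6.60 against 7.77, 7.98, 7.64 and 7.25. Lin+ replicate 1 was low, yet the groups did not overlap and the 2.10-fold difference passed (1.07 ± 0.24, adjusted p = 0.0060). It remained called with any single array left out.

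Bag5 rose by 0.42 ± 0.12 (adjusted p = 0.025) and Bag1, the founding member of the family, by 0.33 ± 0.10 (adjusted p = 0.037). The Bag5 call was lost without Lin+ replicate 1 (0.41, adjusted p = 0.056) or replicate 4 (0.37, adjusted p = 0.071), or on removing HSC-enriched replicate 1 (0.35, adjusted p = 0.068) or replicate 3 (0.40, adjusted p = 0.066). That of Bag1 was lost without Lin+ replicate 1 (0.31, adjusted p = 0.078), 3 (0.33, adjusted p = 0.071) or replicate 4 (0.29, adjusted p = 0.098), or without HSC-enriched replicate 2 (0.29, adjusted p = 0.10), 3 (0.33, adjusted p = 0.077) or replicate 4 (0.34, adjusted p = 0.063). With HSC-enriched replicates 3 and 4 both removed, neither passed (adjusted p = 0.11 and 0.13).
Bag4, Bag2 and Bag6 did not pass, at 0.40 (adjusted p = 0.070), 0.36 (adjusted p = 0.051) and 0.21 (adjusted p = 0.24). Bag4 passed on removing Lin+ replicate 4 (0.49, adjusted p = 0.041), and likewise on removing HSC-enriched replicate 2 (0.50, adjusted p = 0.030), and Bag2 without HSC-enriched replicate 4 (0.45, adjusted p = 0.019).

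**Figure D4:**
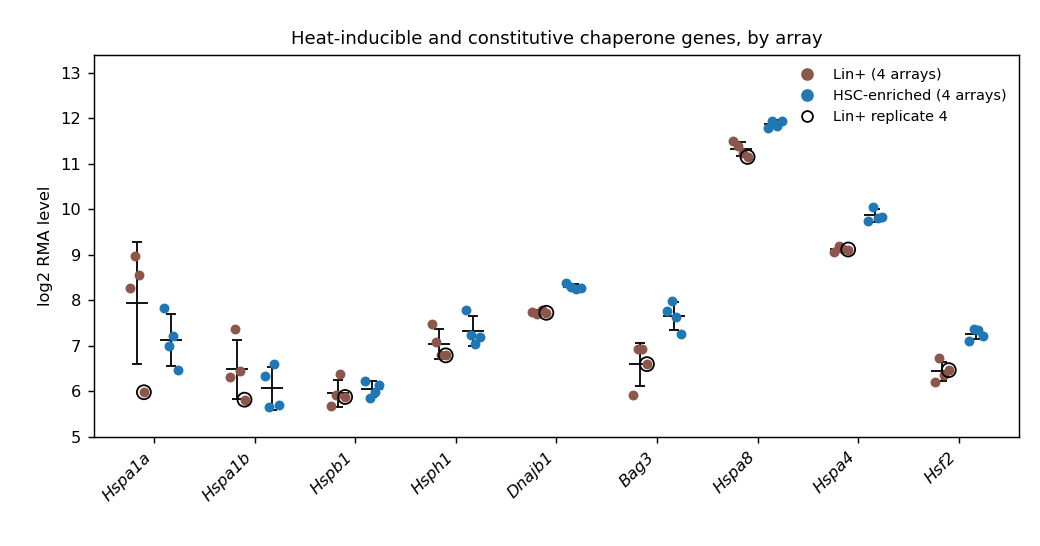
Log2 RMA level on each array (dots; brown Lin+, blue HSC-enriched; black bars are the mean and SD of 4 arrays) of chaperone genes known as heat-inducible (Hspa1a, Hspa1b, Hspb1, Hsph1, Dnajb1, Bag3) and of Hspa8, Hspa4 and Hsf2, with Lin+ replicate 4 circled. That array stands at 5.98 for Hspa1a against 8.26 to 8.98 on the other Lin+ arrays. It is also the lowest Lin+ array for Hspa1b and Hspa8, and for Hsph1 by little (6.79 against 6.80 on Lin+ replicate 3). For Hspb1, Dnajb1, Bag3, Hspa4 and Hsf2 it lies among the other Lin+ arrays.

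Hsp90aa1, the inducible cytosolic HSP90, had low and scattered levels here. It was at 4.23, 5.24, 5.74 and 5.64 in Lin+ cells and at 5.56, 4.44, 5.30 and 4.47 in HSC-enriched cells, around the background guide of 5.11. The groups overlapped and the difference was -0.27 ± 0.36 (adjusted p = 0.67, 95% interval -1.07 to 0.53). Whether these probes respond to the transcript was not tested. The interval reaches past a 2-fold lower level, so a fall of that size is not excluded.

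Small heat shock proteins, which hold unfolded clients without ATP, had 8 measured genes, of which 4 had both means at or under the background guide and 2 rose. With 15.5% of all genes called higher, this count says nothing about the group. Hspb11 had the largest difference of all 86 genes, from 6.68, 6.53, 6.82 and 6.40 to 7.998, 8.142, 7.766 and 7.731 (1.30 ± 0.13, 2.46-fold, adjusted p = 4.0e-05). Its product is IFT25, a part of the machinery that moves cargo along cilia, and it is a member by symbol only. Hspb8, which works with Bag3, was at 4.03, 3.97, 3.86 and 3.95 against 5.05, 4.93, 4.60 and 4.58 (0.84 ± 0.13, adjusted p = 0.00064). The groups did not overlap, but all 8 values lay under the guide, so the size of this difference is uncertain.

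Hspb1, the heat-inducible HSP27-type protein, was at 5.67, 5.92, 6.37 and 5.88 against 6.23, 5.85, 5.98 and 6.15 and did not pass (0.09 ± 0.16, adjusted p = 0.75, 95% interval -0.26 to 0.44). Hspb6 was likewise at 7.19 ± 0.26 and 7.28 ± 0.26 (SD, n = 4; adjusted p = 0.77). Both genes turned slightly negative without Lin+ replicate 1 (-0.0028 and -0.025), still without passing. The remaining Hspb2, Hspb3, Hspb7 and Hspb9 did not pass, with differences of -0.14 (Hspb3) to 0.14 (Hspb7 and Hspb2).

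J proteins, the largest group with 43 genes, went both ways: 8 rose and 4 fell, 31 did not pass, and the median of the differences was 0.06. With 15.5% of all genes called higher and 12.4% lower, these counts are near the background and are no result about J proteins as a group. In class A, whose members resemble bacterial DnaJ most closely, Dnaja2 was at 9.24, 9.06, 8.89 and 8.87 against 9.69, 9.86, 9.82 and 9.93 (0.81 ± 0.11, 1.76-fold, adjusted p = 0.00036). It was the 1 class A gene of 4 to pass. Dnaja1, another cytosolic partner of HSP70, was at 7.43 ± 0.19 and 7.66 ± 0.09 (SD, n = 4; difference 0.23, adjusted p = 0.20), and the mitochondrial Dnaja3 at 7.46 ± 0.12 and 7.71 ± 0.07 (0.25, adjusted p = 0.10). Dnaja4 did not pass (0.47, adjusted p = 0.078) except without HSC-enriched replicate 4 (0.57, adjusted p = 0.049).

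In class B, Dnajb1, the main cytosolic HSP40, had the smallest error of the 86 genes. It was at 7.75, 7.71, 7.79 and 7.72 in Lin+ cells and at 8.37, 8.30, 8.25 and 8.27 in HSC-enriched cells, a rise of 0.56 ± 0.09 (1.47-fold, adjusted p = 0.00081). Lin+ replicate 4 did not stand apart for this heat-inducible gene. Dnajb4, its close relative, was at 6.66, 6.99, 6.77 and 6.63 against 7.73, 7.87, 8.05 and 7.85 (1.11 ± 0.12, 2.16-fold, adjusted p = 4.9e-05). Dnajb13, a gene of sperm flagella and motile cilia, fell from 5.70, 5.58, 5.48 and 5.70 to 5.00, 5.00, 4.49 and 4.78 (-0.80 ± 0.13, adjusted p = 0.0010), with its HSC-enriched arrays under the background guide. Dnajb6, which keeps polyglutamine proteins from aggregating, did not pass (0.28, adjusted p = 0.28), but did without HSC-enriched replicate 4 (0.44, adjusted p = 0.034). Dnajb12, of the endoplasmic reticulum membrane, was at 8.05 ± 0.06 and 8.30 ± 0.14 (SD, n = 4; adjusted p = 0.11) with no overlap between groups.

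Class C holds J proteins with specialised tasks, and 20 of its 28 genes did not pass. The 5 that rose were Dnajc6, Dnajc27, Dnajc18, Dnajc1 and Dnajc2. Dnajc6 encodes auxilin, which recruits HSC70 to strip clathrin from vesicles, and was at 5.25, 5.64, 5.98 and 5.58 against 6.69, 7.06, 6.54 and 6.77 (1.15 ± 0.17, 2.22-fold, adjusted p = 0.00043). Dnajc27, a small GTPase with a J domain, was at 4.51, 4.71, 4.45 and 4.55 against 5.52, 5.87, 5.80 and 5.35 (1.08 ± 0.13, adjusted p = 0.00016), so its Lin+ arrays were under the background guide and its fold is uncertain. Dnajc18 was at 6.04, 6.48, 6.25 and 6.21 against 7.12, 6.87, 7.31 and 7.22 (0.88 ± 0.13, adjusted p = 0.00054), and Dnajc1, a membrane protein of the endoplasmic reticulum, rose by 0.85 ± 0.13 (adjusted p = 0.00076). None of these called genes overlapped between groups.

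The 3 class C genes that fell were Dnajc14, Dnajc4 and Dnajc13. Dnajc14 was at 8.12, 8.31, 8.24 and 8.46 against 7.71, 7.48, 7.24 and 7.50 (-0.80 ± 0.13, 1.74-fold, adjusted p = 0.00075). Dnajc13, which acts on endosomes together with HSC70, was at 7.83, 7.85, 7.72 and 8.05 against 7.37, 7.29, 7.51 and 7.36 (-0.48 ± 0.11, adjusted p = 0.0061). Both fell without overlap. Dnajc4 was at 7.55, 8.08, 8.06 and 7.61 against 7.39, 7.04, 7.55 and 7.28 (-0.51 ± 0.16, adjusted p = 0.038), its highest HSC-enriched array coming close to its lowest Lin+ array. Its call was lost without Lin+ replicate 2 (-0.43, adjusted p = 0.11) or replicate 3 (-0.43, adjusted p = 0.11), or without HSC-enriched replicate 1 (-0.54, adjusted p = 0.061), 2 (-0.42, adjusted p = 0.11) or replicate 4 (-0.50, adjusted p = 0.077).

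Among class C genes that did not pass, Dnajc8, which is linked to splicing, was at 10.017 ± 0.043 and 10.004 ± 0.092 (SD, n = 4), with a 95% interval of -0.22 to 0.20 for the difference. Dnajc7, which passes clients between HSP70 and HSP90, was at 9.93 ± 0.16 and 9.78 ± 0.07 (difference -0.15, 95% interval -0.39 to 0.09). Dnajc5, the cysteine string protein, was the nearest to a call (-0.31, adjusted p = 0.082). The row named Dnajc19-ps is a pseudogene of Dnajc19, and both may share signal.

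A list of 36 cochaperones and partners outside the symbol rule was read beside the members, with HSP90 cochaperones, prefoldin subunits (which hand actin and tubulin to TRiC) and mitochondrial partners. Of these 13 were higher, 23 did not pass, and the median of the differences was 0.24. None was lower in limma, after adjustment or at an unadjusted p under 0.05, at which 16 were higher. At that unadjusted threshold 4839 of all 24011 genes were higher and 3768 lower. The largest rises were those of Trap1, the mitochondrial HSP90, from 7.84 ± 0.16 to 8.82 ± 0.20 (SD, n = 4; adjusted p = 0.00026), and of St13, which binds HSP70 in its ADP state, from 8.94 ± 0.22 to 9.84 ± 0.08 (adjusted p = 0.00031). Other mitochondrial partners went either way. Clpb (0.68, adjusted p = 0.011) and Tomm70a (0.49, adjusted p = 0.014) were higher, whereas Grpel1 (-0.11, adjusted p = 0.58) and Grpel2 (0.26, adjusted p = 0.12) did not pass. The share of the list called higher after adjustment can be read against 15.5% of all genes, or 25.7% of those with a mean above the overall median level.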

How the data were processed

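Per the labels' protocols, total RNA was amplified (Ovation Pico), biotin was added and Affymetrix MouseGene ST arrays were used (versions 1.0st and 2.0st are both named, without saying which sample went on which). The deposited values are log2 levels from RMA; the submitters' processing notes give RMA and Partek but no version. The genome build of the probe sets is not given in the sources used here.

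Of 24973 probe sets, 24015 had 1 symbol, 0 several and 958 none. A RefSeq table (GRCm38.p6) matched 23922 by Entrez ID and gave their current symbols, and the brightest probe set per symbol was kept (24011 genes; each of the 86 members has 1). Groups were compared with limma 3.58.1 (R 4.3.3; lmFit, eBayes), with all 8 arrays, no covariates and no filter on low values. The number of arrays limits precision: the SE of the members' differences was 0.09 to 0.57 (median 0.13).

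Members, lists and tests were chosen with earlier results of these data known. Genes described in full were, per role, up to 3 passing genes with the largest rise, 3 with the largest fall and 2 not passing with the highest level, plus all Cct genes, Tcp1, Hsf1, Hsf2, Hspa1a, Hspa1b, Hspa8, Hspa4l, both HSP90 genes, Hspd1, Hspe1, Hsph1, Hspb1 and Dnajb1. Bag1, Bag2, Hspa12b, Dnaja4, Dnajc1, Dnajc2 and Dnajc5 were added after their values were seen. Promoter sequences are RefSeq's; 17 members had no window in the table used. Alternatives were other scalings, filters, fits and arrays left out. Plots used Python 3.11.15 and matplotlib 3.10.9.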

Additional observations from a re-analysis of the deposited data

Results flagged for a closer look

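In 6 of the 114 groups of 4 arrays examined for the described members, 1 array stood so far from the others that its gap exceeded the critical share of the group's range (Dixon's 95% value). Chance flags about 1 group in 20, so this number is about what chance gives. HSC-enriched replicate 3 was lowest for Cct4 (9.64 against 9.80 to 9.81). Lin+ replicate 3 was lowest for Cct8 (8.59 against 9.06 to 9.11) and Dnajc2 (8.11 against 8.76 to 8.83) and highest for Cct6b (4.07 against 3.95 to 3.97). Lin+ replicate 1 was lowest for Dnajc1 (6.41 against 6.66 to 6.68) and highest for Dnajb6 (7.02 against 6.73 to 6.75). Hspa1a on Lin+ replicate 4, described above, did not reach the critical share.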

How the results depend on the processing

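Of the 33 called chaperone genes, 21 passed in all 19 alternatives, and 25 did in all but the test against a 1.2-fold null. Hspb8 passed in the 17 run for it, since both filters on level removed it. With that null 22 members were called, of which 2 were lower, and 4188 of all genes. Without HSC-enriched replicates 3 and 4 together 25 members were higher and 3 lower, and 5544 of all genes were called. The median difference over members was 0.26 in that fit. It was 0.23 with the filter at the 40th percentile and 0.25 with the filter at the median. These filters test fewer genes and keep a gene that is bright in 1 group alone. With single arrays left out, called members numbered 28 to 35 (24 to 31 higher, 4 to 6 lower), their median difference was 0.15 to 0.23 and calls over all genes 5935 to 6450. With centred arrays 25 members were higher and 5 lower, and 6478 of all genes were called. With quantile normalization 30 members were higher and 5 lower, and 6966 of all genes were called. Calls over all genes were not split by direction in these alternatives, so the members' directions cannot be set against other genes there. Genes that turned sign never passed: Dnajc8 with quantile normalization (0.10), without both HSC-enriched replicates 3 and 4 (0.043) and with single arrays left out (-0.057 to 0.014), and Cct8l1 with centring (-0.0099), the sample list order as a term (-0.015) and single arrays left out (-0.056 to 0.061). With single arrays left out Hspb1 ran from -0.0028 to 0.23 and Hspb6 from -0.025 to 0.18. The cause of these changes was not tested.

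With the replicate number as a block, 29 members passed (25 higher, 4 lower) and 6122 of all genes. Deviations of same-numbered arrays from their group means had correlations of -0.15, 0.06, 0.03 and -0.10. Of 4 HSC-enriched arrays, 2 correlated best with their own number. The labels give only a number, and so few correlations cannot decide whether same-numbered arrays were prepared together. With the order of the sample list as a term, which is not stated to be a batch, 28 members were higher and 4 lower. In that fit 6423 of all genes were called. The smallest difference to pass among members was 0.33 in size (Bag1) with 4 arrays per group, and no smaller one passed.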
